A study of Mus musculus with 9 samples.

Results

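The Smyd genes encode lysine methyltransferases that carry a SET domain, which transfers methyl groups, and a MYND zinc finger, which binds other proteins. Chromatin immunoprecipitation with sequencing (ChIP-seq) signal for the nuclear receptor NR4A2 was described at Smyd1, Smyd2, Smyd3, Smyd4 and Smyd5 in mouse heart ventricle. Members were the deposited regions that touched the RefSeq span of one of these genes (build GRCm38), extended by 10 kb on each side. There were 19 of them among 16884 regions: 12 at Smyd1, 5 at Smyd2, 0 at Smyd3, 1 at Smyd4 and 1 at Smyd5. The family was selected on measured values: it was chosen by the CPM of NR4A2 hearts against control hearts, with a higher signal within Smyd1 already known. Its differences between the groups are therefore a description, and no p-value is given for its members.

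The hearts came from Nr4a2-icTg mice (called NR4A2 hearts, n = 3) and from littermates with the αMHC-MerCreMer transgene alone (called control hearts, n = 3). In Nr4a2-icTg mice the same tamoxifen-inducible Cre, driven by the promoter of the cardiomyocyte gene Myh6, switches on an Nr4a2 knock-in at the ROSA26 locus. Both groups therefore carried the inducible Cre and both received 1 tamoxifen injection of 40 mg/kg at an age of 8 to 9 weeks, with hearts taken on day 3. The study asked how the induced receptor regulates genes in the heart. Whole ventricle holds many cell types, so a signal in more cells and a stronger signal per cell cannot be told apart, and the mouse's own NR4A2 is not told from the induced protein. Chromatin was precipitated with the NR4A2 antibody 9D12, with fly chromatin added as a spike-in.

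NR4A2 belongs to the orphan nuclear receptors of the NGFI-B group, which bind DNA as monomers at an element known as the NBRE. Smyd1, also called Bop, is largely restricted to heart and skeletal muscle, and in mice it is needed for the heart to form. SMYD2 methylates p53, RB1 and the chaperone HSP90, and in muscle it associates with titin. SMYD3 methylates the kinase MAP3K2, and SMYD5 has been reported to methylate histones in mouse cells.

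Signal is given in the authors' CPM, which are scaled read counts. In each library they sum to 989059 to 1009112 over the listed regions, so the scaling is close to reads in these regions. A difference in the share of reads that fall in regions is therefore not seen, and gains in some regions lower the values of others. Reads in regions numbered 637635 to 1035856 in NR4A2 hearts and 549700 to 1027394 in control hearts, and 1 read was worth 0.955 to 1.81 CPM. In a limma fit over all regions, 14.7% of regions were higher in NR4A2 hearts and 3.17% lower at a Benjamini-Hochberg adjusted p under 0.05. These are 2475 and 536 regions. A fit with no depth scaling gave 1398 higher and 14 lower. The sources used here do not state whether reads had been brought to the spike-in before counting. If they had, the unscaled values would be the spike-in comparison, here and wherever a call is given as lost without scaling. At Nr4a2 itself 2 of 4 regions were higher, and the strongest (chr2:57111638-57112257) had 115, 82.0 and 74.4 CPM in NR4A2 hearts, against 6.15, 7.79 and 25.3 CPM in control hearts. This signal is no measure of expression, so it does not check the genotype labels. All 5 cardiomyocyte genes listed (Myh6, Tnnt2, Actc1, Ryr2 and Myl2) held a region that was higher in NR4A2 hearts, with 9 of their 22 regions higher and 2 lower, both at Ryr2. Of all genes with a region within 10 kb, 14.2% had a higher one. The part of the cardiomyocyte genes in the Smyd results was not tested. Of genes silent in heart (Alb, Snap25 and Ins2), 0 of 3 had any listed region, so a gain could not be looked for there. A listed region was found at 1 of 3 fibroblast, 3 of 3 endothelial and 1 of 4 leukocyte genes. The fibroblast, endothelial and leukocyte genes had 2, 12 and 2 regions. Among these were 0 higher calls and 1 lower call, at Pecam1. So few regions cannot show whether their share differs from the 14.7% of all regions. ChIP signal at a gene does not show that the gene is expressed.

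Of the 19 regions, 8 were called higher in NR4A2 hearts (14.7% of all regions were) and 0 lower (3.17% of all regions were). The higher regions were 5 of 12 at Smyd1 and 3 of 5 at Smyd2, with 0 at the other genes. The median log2 fold change over the 19 was 1.08, against -0.06 over all regions. In 12 of the 19 all NR4A2 hearts lay above all control hearts (19.9% of all regions), and in 0 did they all lie below (11.7% of all regions). Because this comparison led to the choice of genes, nothing is read from these counts. The 8 higher regions had log2 fold changes of 1.16 to 2.94, and the 11 others had -0.53 to 1.62.

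**Figure D1:**
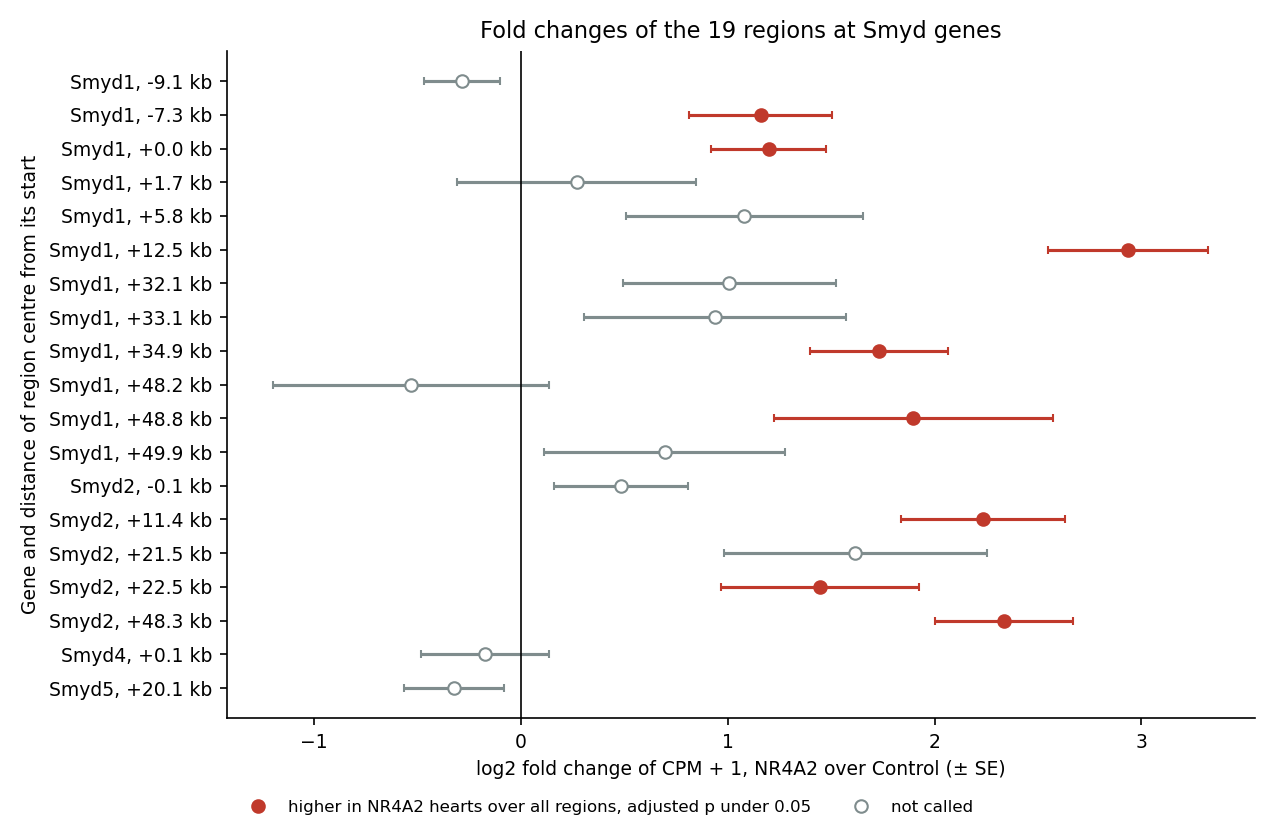
The plot of fold changes gives the log2 fold change of CPM + 1, NR4A2 over control, for the 19 regions at Smyd genes, with bars of 1 SE. Filled red points are the 8 regions called higher. Regions are named by gene and by the distance of their centre from the gene's annotated start, and the values run from -0.53 to 2.94.

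The table lists few weak regions. The lowest mean over the 6 libraries was 8.81 CPM, and the lowest total was 44 reads. Of the 19 regions, 5 had a control mean under 8.81 CPM. Of these 5, 2 were called higher, the Smyd1 regions at 12.5 kb and at 321 bp beyond the far end. The other 6 higher regions had control means of at least 8.81 CPM. Over all regions, 1403 had a control mean under 8.81 CPM, and 1107 of these were called higher. The remaining regions of the 16884 held 1368 higher calls. The 8.81 CPM is only the lowest mean seen, and the sources used here do not state the rule for listing a region. How far the listing of any of the 19 regions rested on the NR4A2 hearts therefore cannot be told from this split. The region numbers in the table run to 19101, and 2217 of them are not listed. Between the listed neighbours of a gene, 2 numbers were skipped at Smyd1, 3 at Smyd2, 1 at Smyd3, 0 at Smyd4 and 1 at Smyd5. The sources used here give neither their positions nor the reason.

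Smyd1 (gene ID 12180, chr6:71213940-71262281, minus strand) held the most regions of the family. Of 11155 genes with a region within 10 kb, 39 had at least 12 regions, and 17 had at least 5 higher ones. Of its regions, 8 touched the gene span of 48.3 kb and the others lay on either side. The gene table gives no exons, so exonic and intronic positions are not told apart.

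The strongest difference of the family lay inside Smyd1, 12.5 kb downstream of the annotated start (chr6:71249546-71250095, 550 bp). The 3 NR4A2 hearts had 66.8, 96.2 and 59.3 CPM, against 8.20, 10.7 and 7.24 CPM in the 3 control hearts. The groups did not overlap, and the ratio of means was 8.50. The means were 74.1 ± 19.5 CPM in NR4A2 hearts and 8.71 ± 1.79 CPM in control hearts (SD, n = 3 each), a log2 fold change of 2.94 ± 0.39 (SE). In fold change the region ranked at place 200 of 16884, while its control level stood at percentile 8.11 of all regions. Its control mean was under 8.81 CPM, the lowest mean over the 6 libraries of any listed region. How far its listing rested on the NR4A2 hearts cannot be told. The control values rest on 4 to 11 reads and the NR4A2 values on 47 to 70 reads.

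A further region inside Smyd1 lay 34.9 kb downstream of the start (chr6:71227081-71227703, 623 bp). It had 67.8, 52.0 and 70.6 CPM in NR4A2 hearts, against 22.5, 16.5 and 16.3 CPM in control hearts, so the groups were separate there too. The means were 63.5 ± 10.03 and 18.5 ± 3.54 CPM (SD, n = 3 each, NR4A2 hearts first), a log2 fold change of 1.73 ± 0.33 (SE). The neighbours of it, at 32.1 and 33.1 kb, were weak. They had 20.7 ± 4.74 and 13.8 ± 0.41 CPM in NR4A2 hearts, against 10.1 ± 4.18 and 6.75 ± 0.79 CPM in control hearts (SD, n = 3). At both neighbours all NR4A2 hearts lay above all control hearts, but neither was called.

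The annotated start of Smyd1 lay within a region of its own (chr6:71262031-71262517, 487 bp). It had 73.5, 77.2 and 78.2 CPM in NR4A2 hearts, against 39.96, 30.2 and 29.0 CPM in control hearts. The NR4A2 hearts were close together and without overlap above the control hearts, with a ratio of means of 2.31. The means were 76.3 ± 2.47 CPM in NR4A2 hearts and 33.0 ± 6.03 CPM in control hearts (SD, n = 3 each), a log2 fold change of 1.20 ± 0.28 (SE). It was called higher. Of the 6026 regions that hold an annotated RefSeq start, 1.31% were called higher and 4.46% lower, and of regions that hold none 22.1% were called higher. The call was not made without scaling for depth, where the log2 fold change was 1.17.

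The sequences before the starts of Smyd1 and Smyd2 are shown because both starts lay in a listed region and only that of Smyd1 was called higher. They are the 250 bases before the annotated start from RefSeq (GRCm38.p6), each 5′ to 3′ on the gene's own minus strand, chr6:71262282-71262531 for Smyd1 and chr1:189922292-189922541 for Smyd2. The Smyd1 start is the end of its gene span, 71262281. The Smyd2 start used, 189922291, lies inside a span that ends at 189922495. Most of the Smyd2 stretch therefore lies within the gene span, and the 2 stretches are not alike in this. Capitals mark CG dinucleotides.
Smyd1: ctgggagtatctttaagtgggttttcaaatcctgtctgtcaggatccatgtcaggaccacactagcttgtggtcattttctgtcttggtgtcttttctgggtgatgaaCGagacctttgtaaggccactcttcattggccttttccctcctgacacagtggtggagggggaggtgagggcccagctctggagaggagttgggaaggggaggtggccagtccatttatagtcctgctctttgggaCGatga
Smyd2: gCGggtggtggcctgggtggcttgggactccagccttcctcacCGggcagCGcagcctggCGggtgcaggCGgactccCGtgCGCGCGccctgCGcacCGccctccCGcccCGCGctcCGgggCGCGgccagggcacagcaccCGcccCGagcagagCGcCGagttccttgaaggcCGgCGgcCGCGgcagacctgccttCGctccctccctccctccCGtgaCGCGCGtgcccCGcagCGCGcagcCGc

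The Smyd1 stretch held 2 CG dinucleotides and 51.6% G or C, against medians of 6 and 52.4% over 32851 RefSeq promoters. The Smyd2 stretch held 34 CG dinucleotides and 78.8% G or C, and those of Smyd4 and Smyd5 held 28 and 10 CG dinucleotides with 69.2% and 60.4% G or C. RefSeq sequences matched 4 of the 5 genes, all but Smyd3. The NBRE (AAAGGTCA), its core AAGGTCA and the shorter AGGTCA, each contained in the one before, were searched on both strands. None of the 4 stretches held any of them, whereas 1.34%, 4.08% and 14.02% of all promoters held them. The paired element NurRE, the MEF2 site, the CArG box, the M-CAT element (CATTCC) and the GATA site (AGATAA) had no match in the 4 either, and were in 0%, 0.508%, 1.47%, 12.6% and 9.99% of all promoters. The GC box (GGGCGG), found in 32.7% of all promoters, occurred 3 times before Smyd2 and 2 times each before Smyd4 and Smyd5, and not before Smyd1. The E-box (CANNTG), found in 66.2% of promoters, occurred 2 times before Smyd4 and in none of the other 3. These are letter matches, and a stretch with no match shows nothing about binding there. No genome sequence was used for the regions away from the starts.

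The flanks of Smyd1 held 2 more higher regions. One lay 7086 bp upstream of the gene (chr6:71269367-71269760), nearer to the neighbouring gene Krcc1. It had 42.0, 55.2 and 47.9 CPM in NR4A2 hearts, against 17.4, 24.3 and 21.7 CPM in control hearts, a log2 fold change of 1.16 ± 0.35 (SE). The groups were separate, but the call was lost without NR4A2 mouse 2 (log2 fold change 1.06) and without scaling for depth (1.13). The other lay 321 bp beyond the far end of the gene (chr6:71213331-71213619) and was weak, with 22.0, 23.6 and 11.4 CPM in NR4A2 hearts, against 6.15, 1.95 and 5.43 CPM in control hearts. Its log2 fold change was 1.90 ± 0.67 (SE) on 2 to 23 reads per heart, and the call was lost without NR4A2 mouse 1 (1.76), NR4A2 mouse 2 (1.71) or control mouse 2 (1.50), and without scaling for depth (1.84). A region that touches the far end of the gene itself (chr6:71213959-71214263) had 3.82, 4.73 and 22.7 CPM in NR4A2 hearts, against 17.4, 6.81 and 12.7 CPM in control hearts, so the groups overlapped (log2 fold change -0.53 ± 0.67). The remaining flank region (chr6:71212287-71212517) overlapped as well, with 11.5, 28.4 and 10.1 CPM in NR4A2 hearts, against 9.22, 5.84 and 12.7 CPM in control hearts. Its log2 fold change was 0.70 ± 0.58, and 0.25 without NR4A2 mouse 2, the highest heart.

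The strongest control signal within the Smyd1 window belonged to a region that overlaps Krcc1 (chr6:71270828-71272024, 1197 bp), and it did not gain. It had 159, 121 and 151 CPM in NR4A2 hearts, against 144, 164 and 221 CPM in control hearts (log2 fold change -0.28 ± 0.18 SE). The groups overlapped. The 2 last regions inside Smyd1, at 1.75 and 5.78 kb from the start, had means of 13.1 ± 3.89 and 17.7 ± 4.06 CPM in NR4A2 hearts, against 10.5 ± 2.24 and 7.97 ± 2.49 CPM in control hearts (SD, n = 3). Neither was called, although at 5.78 kb all NR4A2 hearts lay above all control hearts.

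**Figure D2:**
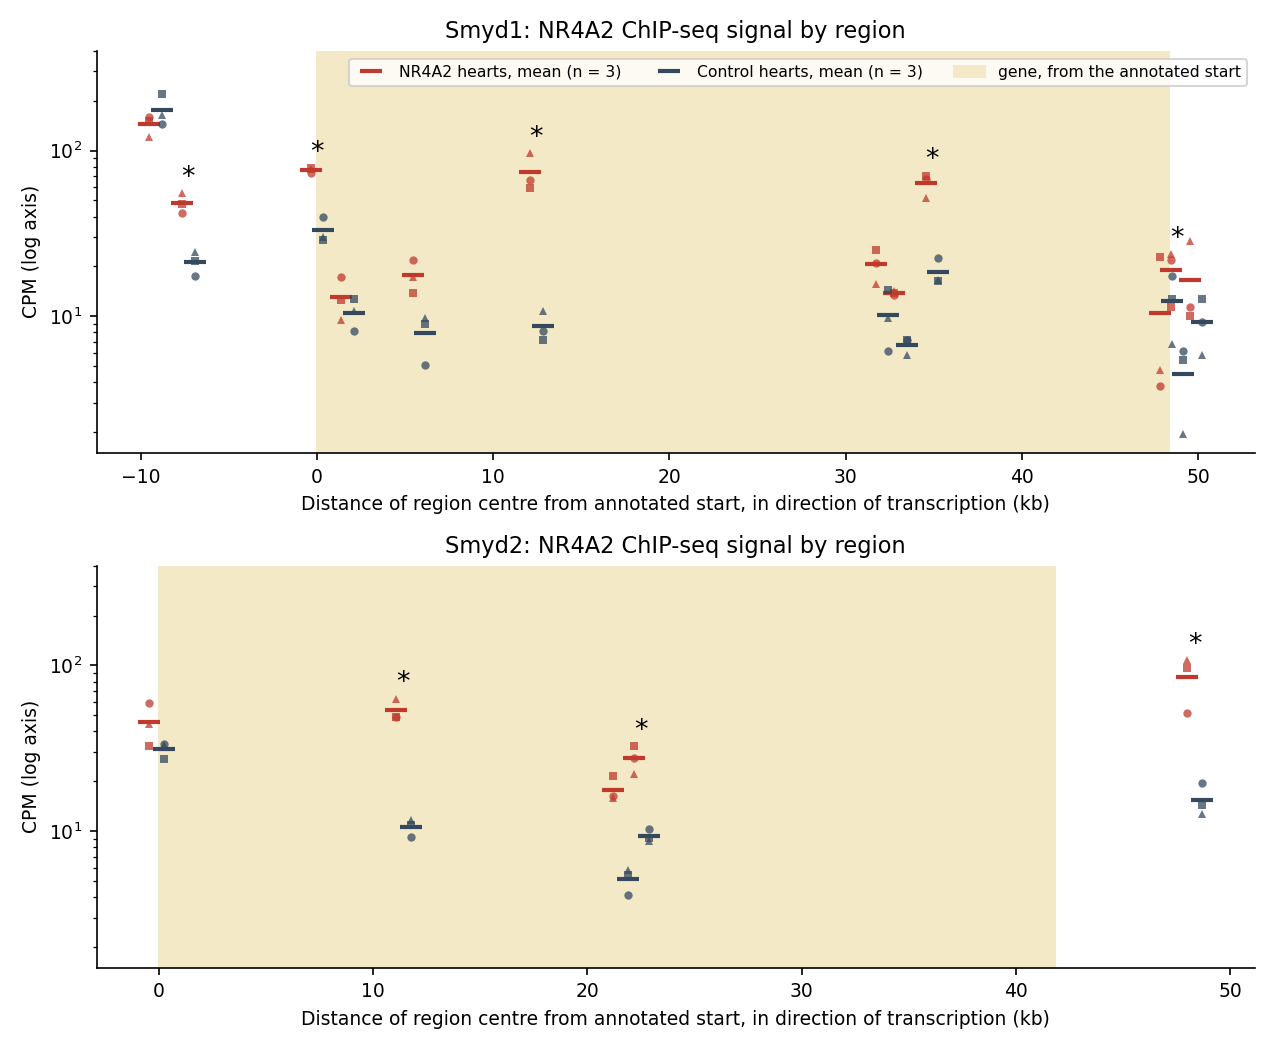
The plot of signal along the 2 genes shows CPM (log axis) in each region at Smyd1 (top) and Smyd2 (bottom) by the distance of its centre from the annotated start in kb. Red marks are NR4A2 hearts and dark marks control hearts, drawn slightly apart. Circles, triangles and squares are mouse 1, 2 and 3, short bars are means, shading is the gene and stars are regions called higher. At Smyd1 the starred regions within the gene stand at the start and at 12.5 and 34.9 kb, with weak regions between them, and 1 more stands on each flank.

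Summed over its 12 regions, Smyd1 had 519, 515 and 517 CPM in NR4A2 hearts, against 292, 297 and 369 CPM in control hearts. The 5 higher regions held 51.7 to 59.0% of that signal in NR4A2 hearts and 21.6 to 32.3% in control hearts. The other 7 regions summed to 236 ± 21.6 CPM in NR4A2 hearts and 233 ± 49.2 CPM in control hearts (SD, n = 3 each). The region that overlaps Krcc1 made up 144 and 177 CPM of these sums. The near-equal sums therefore do not show that the weaker uncalled regions were flat. At 5.78, 32.1 and 33.1 kb all NR4A2 hearts lay above all control hearts. Since regions were split by their own change, the shares in the 5 higher regions describe where the called gain lay and are no test of it.

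Smyd2 (gene ID 226830, chr1:189880492-189922495, minus strand) had 5 regions, all with a positive fold change. The largest was outside the gene, 6180 bp beyond its far end and within Ptpn14, which encodes a tyrosine phosphatase (chr1:189873607-189874312, 706 bp). It had 51.6, 107 and 97.1 CPM in NR4A2 hearts, against 19.5, 12.7 and 14.5 CPM in control hearts. The groups were separate, and NR4A2 mouse 1 was well below the other NR4A2 hearts. The means were 85.3 ± 29.6 CPM in NR4A2 hearts and 15.5 ± 3.53 CPM in control hearts (SD, n = 3 each), a log2 fold change of 2.34 ± 0.33 (SE). Which of Smyd2 and Ptpn14 it belongs to cannot be told from its position.

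Inside Smyd2 the strongest region lay 11.4 kb downstream of the start (chr1:189910526-189911221, 696 bp). It had 48.7, 63.0 and 49.2 CPM in NR4A2 hearts, against 9.22, 11.7 and 10.9 CPM in control hearts. No values overlapped, and the means were 53.6 ± 8.15 CPM in NR4A2 hearts and 10.6 ± 1.25 CPM in control hearts (SD, n = 3 each), a log2 fold change of 2.23 ± 0.39 (SE). Its place resembles that of the strongest Smyd1 region, 12.5 kb from the start of its gene, with no test of that likeness.

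A pair of short regions followed at 21.5 and 22.5 kb. The one at 22.5 kb (chr1:189899661-189899904) had 27.7, 22.1 and 32.8 CPM in NR4A2 hearts, against 10.2, 8.76 and 9.05 CPM in control hearts (log2 fold change 1.45 ± 0.48 SE). It was called higher, but not without NR4A2 mouse 1 (1.43), NR4A2 mouse 3 (1.32) or control mouse 2 (1.41), and not without scaling for depth (1.40). The one at 21.5 kb (chr1:189900613-189900875) had 16.2, 15.8 and 21.4 CPM in NR4A2 hearts, against 4.10, 5.84 and 5.43 CPM in control hearts (1.62 ± 0.64 SE). It was not called by limma, but it was by edgeR on recovered reads (log2 fold change 1.78) and with 5 in place of 1 added to the CPM (1.17). At both regions all NR4A2 hearts lay above all control hearts.

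The annotated start of Smyd2 lay in a region (chr1:189922172-189922564, 393 bp) with 59.2, 44.1 and 32.8 CPM in NR4A2 hearts, against 33.8, 33.1 and 27.2 CPM in control hearts. Here the groups overlapped, and the log2 fold change of 0.49 ± 0.32 (SE) was not called. The difference between the starts of Smyd1 and Smyd2 in fold change was not tested. Summed over 5 regions, Smyd2 had 203, 252 and 233 CPM in NR4A2 hearts, against 76.8, 72.0 and 67.0 CPM in control hearts. Per kb of region, the mean signal of all its regions was 99.8 CPM in NR4A2 hearts and 31.3 CPM in control hearts. That of Smyd1 was 97.5 CPM in NR4A2 hearts and 60.2 CPM in control hearts. Both values take in a region at a neighbouring gene. The one that overlaps Krcc1 had 120 CPM per kb in NR4A2 hearts and 148 in control hearts. The one within Ptpn14 had 121 and 22.0 CPM per kb. The control levels of the 2 genes are therefore not compared by these values.

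**Figure D3:**
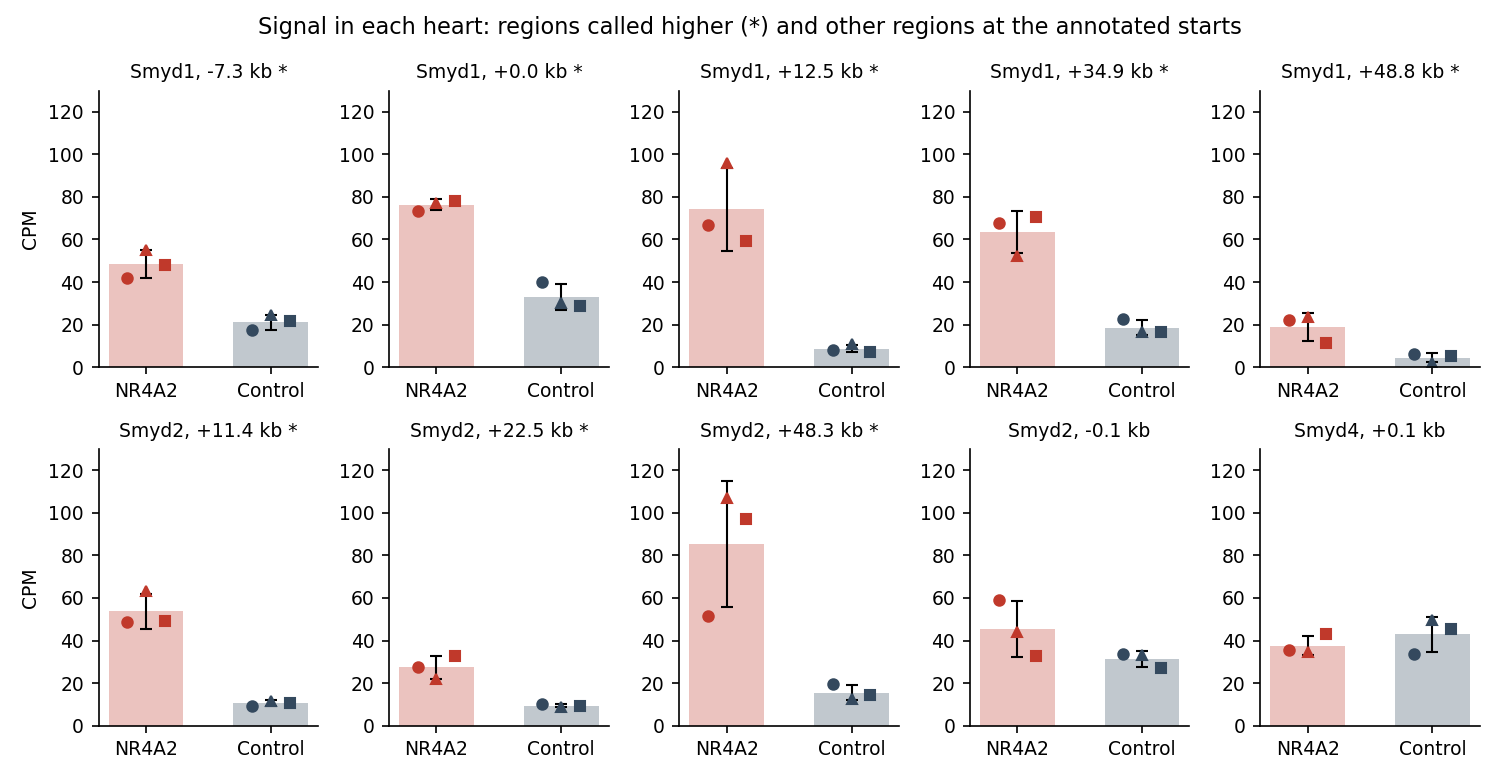
The plot of signal by heart shows CPM in the 8 regions called higher (starred) and in the other regions that hold the start of Smyd2 or Smyd4. Bars are means with SD (n = 3), and circles, triangles and squares are mouse 1, 2 and 3 of each group. NR4A2 hearts lie above control hearts in every starred panel, while the values overlap at the starts of Smyd2 and Smyd4.

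The rest of the family showed no gain in the listed regions. Smyd3 (chr1:178951960-179518053), the longest of the 5 genes at 566 kb, had no listed region in 586 kb searched. The nearest one lay 28.0 kb away at Tfb2m and Cnst and had 65.5 ± 21.4 CPM in NR4A2 hearts and 65.3 ± 16.3 CPM in control hearts (SD, n = 3 each). Smyd4 (chr11:75348433-75405707) had 1 region, at its start (chr11:75348286-75348872), which it shares with Rpa1, a gene of DNA replication on the other side. It had 35.3, 34.7 and 42.9 CPM in NR4A2 hearts, against 33.8, 49.6 and 45.3 CPM in control hearts, with overlap (log2 fold change -0.17 ± 0.31 SE).

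The 1 region of Smyd5 (chr6:85431976-85446429) was not at its start but 5408 bp beyond its far end, at Pradc1 and the chaperonin gene Cct7 (chr6:85451837-85452306). It had 61.1, 61.5 and 60.5 CPM in NR4A2 hearts, against 87.1, 59.4 and 86.9 CPM in control hearts. The NR4A2 hearts lay within the range of the control hearts, and the log2 fold change of -0.32 ± 0.24 (SE) was not called. With 1 number skipped between its listed neighbours, an unlisted region at the Smyd5 start cannot be told from none.

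The 10 kb window took in regions on the flanks. The members farthest from their genes lay 8547 and 7086 bp from Smyd1, 6180 bp from Smyd2 and 5408 bp from Smyd5. The nearest regions outside the window were 178 kb from Smyd1, 152 kb from Smyd2, 28.0 kb from Smyd3, 54.1 kb from Smyd4 and 29.0 kb from Smyd5. Their log2 fold changes were -0.42, 0.15, -0.01, -1.51 and -0.16, with only the one beyond Smyd4 called (lower). Within the gene spans alone, 5 regions were called higher, 3 at Smyd1 and 2 at Smyd2.

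**Figure D4:**
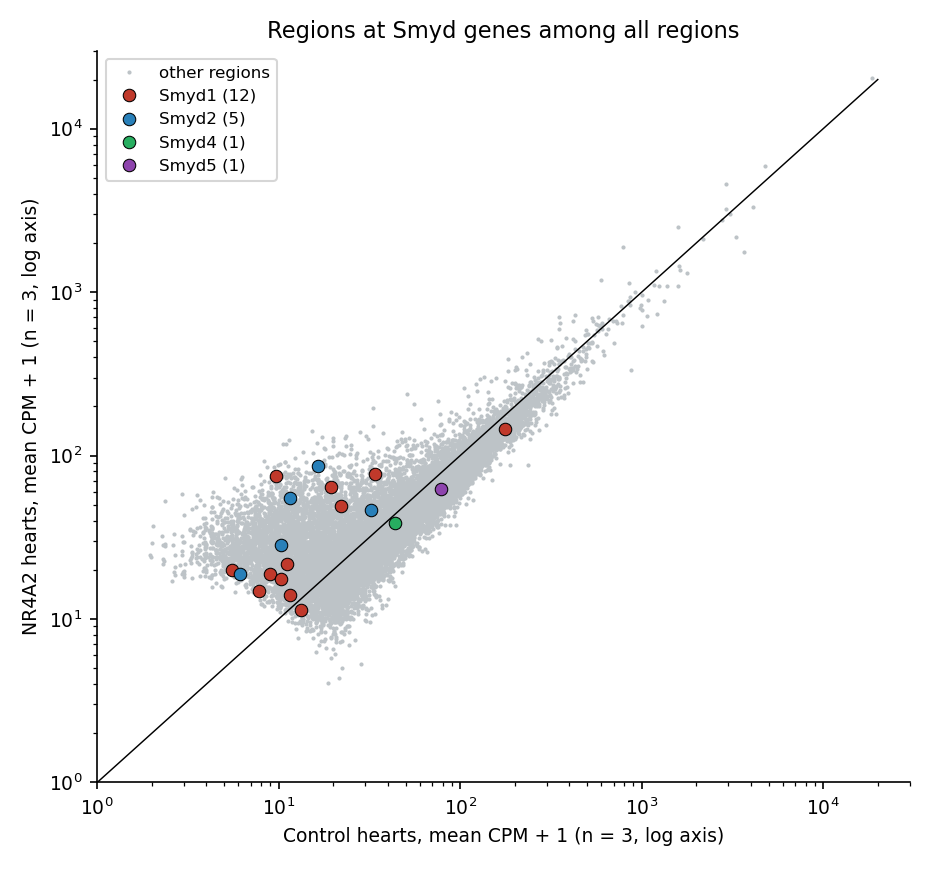
The plot of all regions sets the mean CPM + 1 of control hearts (x axis) against that of NR4A2 hearts (y axis), both on log axes and n = 3. Grey points are the other regions, coloured points are the 19 at Smyd genes, and the line marks equal signal. Most of the Smyd1 and Smyd2 points lie above the line at control levels under 40 CPM, and the Smyd4 and Smyd5 points lie just below it.

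Regions most like the strongest Smyd1 region were sought by the root mean square difference of log2(CPM + 1) over the 6 libraries. The nearest 5 with a protein-coding gene within 10 kb lay at Lman1l (0.29), Bdnf (0.30), Stk33 (0.33), Scp2 (0.34) and Wfikkn2 (0.34). That at Bdnf, the gene of a neuronal growth factor, had 67.8, 66.2 and 69.4 CPM in NR4A2 hearts, against 9.22, 8.76 and 5.43 CPM in control hearts. That at Scp2, the gene of a lipid carrier of peroxisomes, had 53.5, 85.1 and 75.7 CPM in NR4A2 hearts, against 8.20, 16.5 and 9.05 CPM in control hearts. The measure compares levels over 6 hearts and was applied after the region had been picked for its difference.

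Genes around the family were described from fixed lists. Beside their counts stand the shares over all genes with a region, 14.2% with a higher and 6.25% with a lower one. A gene with more regions has more chances of a call, so these shares are a poor measure for genes with many regions. Of 31 other SET-domain methyltransferase genes, 29 had a region, 4 of them a higher and 7 a lower one, with Nsd1 in both. The median log2 fold change of their 66 regions was -0.13, against -0.06 over all regions. Named by the size of their change were Prdm2 (2.68 ± 0.84 SE, limma adjusted p = 0.0149), Nsd1 (2.35 ± 0.36, adjusted p = 3.1e-07), Prdm16 (1.96 ± 0.61, adjusted p = 0.0142) and Setd5 (1.50 ± 0.54, adjusted p = 0.0382). Apart from Nsd1, the genes with a lower region were Setd2, Setd6, Kmt2b, Kmt2d, Nsd3 and Kmt5b, named here after their values were seen. Their log2 fold changes ran from -1.08 ± 0.30 (Setd2, which encodes a histone methyltransferase, limma adjusted p = 0.0057) to -0.51 ± 0.15 (Kmt5b, adjusted p = 0.0088). The Setd5 region (chr6:113071887-113072303) lies 4959 bp from Setd5 and touches ROSA26, the locus of the knock-in. Setd5 and ROSA26 each had 3 regions within 10 kb, 2 of them higher, with the same highest control mean of 308 CPM. The higher calls counted for Setd5 are therefore not separate from the knock-in locus. In the named region NR4A2 mouse 1 had 41.1 CPM and mice 2 and 3 had 17.3 and 16.4 CPM, against 7.17, 7.79 and 7.24 CPM in control hearts. The Prdm2 region was weak, with 26.7, 17.3 and 11.4 CPM in NR4A2 hearts, against 2.05, 6.81 and 0 CPM in control hearts. The region within Nsd1, which encodes a histone H3 methyltransferase, had 68.9 ± 5.08 CPM in NR4A2 hearts and 13.02 ± 3.71 CPM in control hearts (SD, n = 3 each).

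Of 11 genes of SMYD partners and substrates, 2 had a higher and 0 a lower region. They were Rb1, the retinoblastoma gene (log2 fold change 2.12 ± 0.37 SE), and Ttn, which encodes titin, where 9 of 183 regions were higher (largest 1.44 ± 0.42), a lower share than the 14.7% of all regions. The other 9, among them Trp53 and Map3k2, had no called region. Of 4 genes that act downstream of Smyd1 in heart, 3 had a higher region, namely the ventricular homeobox gene Irx4 (2.24 ± 0.38), the coactivator gene Ppargc1a (1.95 ± 0.35) and Perm1, a regulator of mitochondrial genes (1.07 ± 0.16). Hand2, a transcription factor gene of the right ventricle, did not pass (0.39 ± 0.28, limma adjusted p = 0.371). Of 5 regulators of Smyd1 in muscle, Mef2c (1.53 ± 0.52) and Mef2d (1.19 ± 0.42) had 1 higher region each, Mef2a had a lower one (-0.44 ± 0.16), and Srf and Myocd had none. Counted by region, 5 of 66 were higher and 7 lower for the SET-domain list, and 10 of 203 and 0 for partners and substrates. For genes downstream of Smyd1 they were 7 of 27 and 0, and for its regulators 2 of 24 and 1. Over all regions 14.7% were higher and 3.17% lower. These lists were drawn up with earlier results of the same data known.

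In the authors' deposited table, 5 regions at Smyd1 and 4 at Smyd2 are called up, the fourth being the one at 21.5 kb, with 14.9% of all regions called up. That table gives 0 of the 19 as down, and 1.95% of all regions.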

How the data were processed

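NR4A2 ChIP-seq libraries of 6 mice were used, and the other 3 of 9 samples have no column in the table and were not analysed here. Per the submitters' processing notes, BWA and the build GRCm38 (mm10) were used. The sources used here do not state the peak caller, counter, filters or use of the fly spike-in. The authors deposited CPM per mouse, and per the file headers their own log2 fold change, log2 mean CPM, p-value and FDR. Dividing CPM by the step of each library gave whole reads for 100% of values (within 0.001 read). Scaling to the reads in the listed regions hides any change common to every region. The fit used limma 3.58.1 (trend, robust) in R 4.3.3 on log2(CPM + 1) over all regions, with genotype as the only term. On recovered reads, edgeR 4.0.16 called 2574 regions higher and 579 lower, and DESeq2 1.42.0 was run as well. Fold changes on this scale understate the change of weak regions. The fits were tested on simulated data. Alternatives were pseudocounts of 0.5 and 5, no scaling, a median filter, a replicate block, each mouse left out, and gene spans extended by 0 or 50 kb. For each Smyd gene the text names the regions of largest change and highest mean, that nearest the start and each called region, and up to 4 genes per list. The members and lists were chosen with earlier results of these data known.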

Additional observations from a re-analysis of the deposited data

How the results depend on the processing

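None of the 19 Smyd regions changed direction under any alternative run. Of the 8 called higher, 4 kept the call in every alternative that tested them (Smyd1 at 12.5 and 34.9 kb, Smyd2 at 11.4 and 48.3 kb), and 4 lost it in at least 1. With no scaling for depth, 4 Smyd regions were higher (2 at Smyd1), with 1398 and 14 regions higher and lower in all. Among regions of at least median signal, 8 Smyd regions remained for testing and 4 were higher (3 at Smyd1, 1 at Smyd2). Of the 8442 regions tested there, 481 were higher and 235 lower, against 2475 and 536 of all 16884. Higher calls made up 67.2% of the calls there and 82.2% in the main fit. Gene spans with no extension gave 5 higher Smyd regions. DESeq2 called 251 regions lower in all. With each mouse left out in turn, 6 to 8 Smyd regions were higher (3 to 5 at Smyd1, 2 to 3 at Smyd2). Over all regions 1577 to 2332 were then higher and 270 to 454 lower, with 1577 and 270 without NR4A2 mouse 3 and 354 lower without control mouse 3. Smyd1 had 3 higher regions without NR4A2 mouse 2. The cause of these differences was not tested. Smyd regions called lower numbered 0 in every alternative. The same mouse numbers stand in both groups, but same-numbered mice did not deviate together (correlations over regions of -0.07, 0.06 and 0.03 for mouse 1, 2 and 3). Mice of unlike number gave -0.10 to 0.07. No pairing by number was therefore seen, and a shared batch was not tested. With the mouse number as a replicate block, 8 Smyd regions were higher and 0 lower (5 at Smyd1, 3 at Smyd2), with 2540 and 580 in all. Depth limits the weakest Smyd regions, which hold 2 to 23 reads per heart.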

Other observations

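The CG content around annotated starts was examined after the Smyd1 start region had been seen. Among regions that hold an annotated start, 517 had at most 6 CG dinucleotides, the median over promoters, in the 250 bases before it. Of these, 49 (9.48%) were higher in NR4A2 hearts, against 30 (0.545%) of the 5509 whose starts had more. The start of Smyd1, with 2, belongs to the CG-poor kind, and those of Smyd2 and Smyd4 to the other. This is a count over regions, with no test.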
